A study of Homo sapiens with 2 samples.

Results

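The miR-99/100 and miR-125 families were followed in BEAS-2B cells exposed to manganese, as the counts of 11 mature miRNA entries among the 2904 entries of the deposited table. The families were picked with earlier results of these data known, and their members are all entries called hsa-miR-99a, hsa-miR-99b, hsa-miR-100, hsa-miR-125a or hsa-miR-125b, with or without a copy number and an arm. They comprised 5 arms from the 5′ side of a hairpin (5p) and 6 from its 3′ side (3p). The study sequenced small RNA of wild-type BEAS-2B cells, an immortalised line of human bronchial epithelium grown with fetal bovine serum. The manganese library came from cells treated with manganese for 24 h, and the control library from cells given vehicle for 24 h. Each of the 2 groups held 1 library, the sources used here do not state the manganese dose, and every difference below therefore compares the 2 libraries, with no replicate check.

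A miRNA hairpin is cut by Drosha and Dicer into a short duplex. One strand, the guide, is usually kept in Argonaute, and the other, the passenger, is mostly degraded. The guide finds its targets mainly through its seed, bases 2 to 8 from the 5′ end. The miR-125 family is the vertebrate counterpart of lin-4, the first miRNA described in Caenorhabditis elegans, and is known for roles in differentiation, haematopoiesis and p53 control. The miR-99/100 family is known for repressing components of the mTOR and insulin-like growth factor pathways, and is related in sequence to miR-10. In vertebrates both families sit beside a let-7 hairpin in clusters that can be transcribed as 1 primary RNA.

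The mature sequences below are shown because they define which entries act through the same seed and which can be told apart by reads. They were taken from RefSeq (GRCh38.p14), where 11 of 11 members were matched by name, and capitals mark the seed.
miR-100-5p: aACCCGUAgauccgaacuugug
miR-99a-5p: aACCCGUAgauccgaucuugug
miR-99b-5p: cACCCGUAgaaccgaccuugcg
miR-125a-5p: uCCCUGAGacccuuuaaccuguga
miR-125b-5p: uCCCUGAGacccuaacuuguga
miR-100-3p: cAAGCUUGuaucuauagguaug
miR-99a-3p: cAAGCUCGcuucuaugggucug
miR-99b-3p: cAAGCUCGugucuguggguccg
miR-125b-1-3p: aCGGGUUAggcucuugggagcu
miR-125b-2-3p: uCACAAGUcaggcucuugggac
miR-125a-3p: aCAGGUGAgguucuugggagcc

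All 3 miR-99/100 5p arms shared 1 seed, and both miR-125 5p arms shared another. Counted from the 5′ end, miR-100-5p and miR-99a-5p differed by the single substitution A16U over 22 bases. Reads that end before that base, or carry an error at it, can be placed on either. In miR-99b-5p there were 4 substitutions relative to miR-100-5p, namely A1C, U11A, A16C and U21C. The first 13 bases of miR-125a-5p and miR-125b-5p were identical. Among the 3p arms, miR-99a-3p and miR-99b-3p shared a seed, while miR-100-3p differed from them within the seed by U7C, and the 3 miR-125 3p arms each had a seed of their own. In RefSeq, 1 further mature miRNA, miR-4319, carried the miR-125 5p seed, and it had 0 counts in both libraries.

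The hairpins lie at 3 loci, each in the order miR-99/100, let-7 and miR-125 along the transcribed strand. In GRCh38 (GENCODE release 29), MIR100 (chr11:122152229-122152308), MIRLET7A2 (chr11:122146522-122146593) and MIR125B1 (chr11:122099757-122099844) are on the minus strand in introns of the long non-coding gene MIR100HG. MIR99A (chr21:16539089-16539169), MIRLET7C (chr21:16539828-16539911) and MIR125B2 (chr21:16590237-16590325) are on the plus strand in introns of MIR99AHG. MIR99B (chr19:51692612-51692681), MIRLET7E (chr19:51692786-51692864) and MIR125A (chr19:51693254-51693339) are on the plus strand in introns of the protein-coding gene SPACA6. The chromosome 19 locus spans 728 bases, against 52.6 kb for the chromosome 11 locus and 51.2 kb for the chromosome 21 locus. The 5p arm of miR-125b is made from both MIR125B1 and MIR125B2 and cannot be assigned to either, whereas miR-125b-1-3p comes only from chromosome 11 and miR-125b-2-3p only from chromosome 21.

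**Figure D1:**
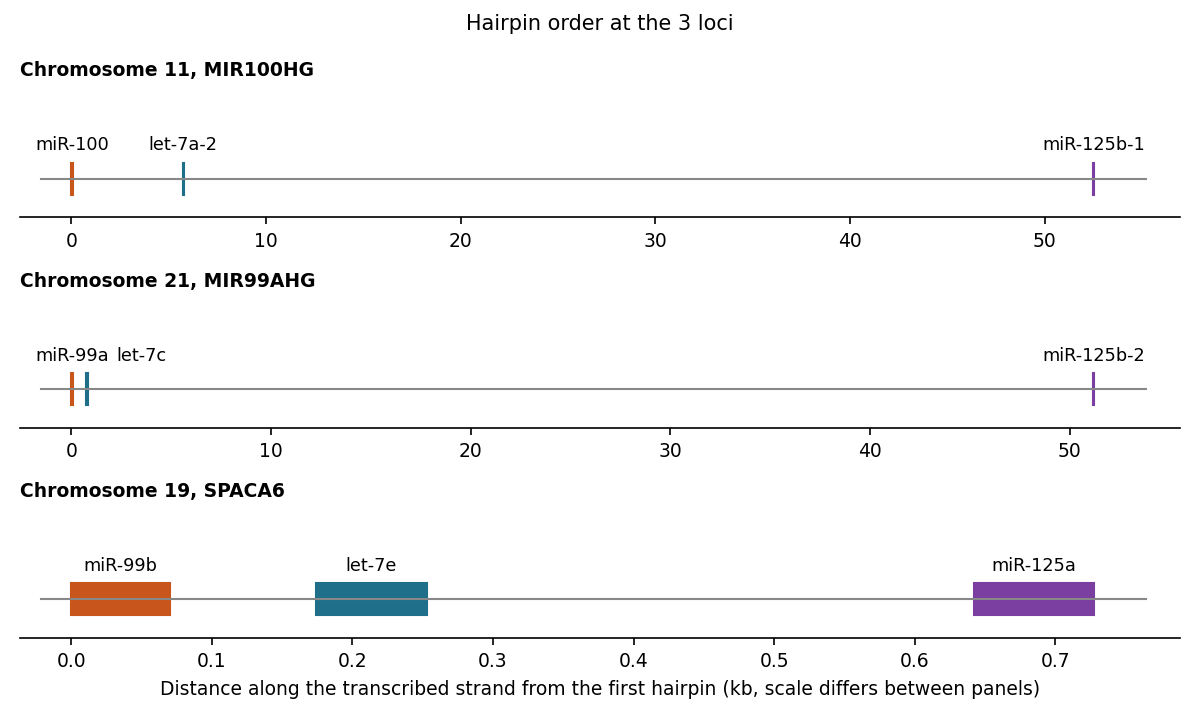
Hairpins of the 3 loci drawn to scale as distance in kb from the first hairpin along the transcribed strand, with a separate scale in each panel. The order is miR-99/100, let-7 and miR-125 at each locus, within 728 bases on chromosome 19 and within 52.6 kb on chromosome 11.

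The manganese library held 1091070 counts and the control library 1064179. Measured entries were the 403 whose counts in the 2 libraries summed to 20 or more, and their median fold of manganese over control was 0.944 (interquartile range 0.729 to 1.37). The epithelial marker list was thinly covered, with 3 of 11 entries measured and 4 at 0 in both libraries, and it summed to 212 CPM (scaled counts per 1000000) in the manganese library and 109 in the control library. Among its defining members, miR-205-5p had 11 counts in the manganese library and 3 in the control library, and miR-200c-3p had 7 in the manganese library and 3 in the control library. Of the 3 measured entries of that list, 2 were at least 2-fold higher. Blood cell markers summed to 165152 CPM in the manganese library and 8910 CPM in the control library, and 7 of the 7 measured out of 13 entries were at least 2-fold higher. Nearly all of that sum was 1 entry, miR-486-5p, with 174822 counts in the manganese library and 9597 in the control library. Across all 403 measured entries, 12.9% were at least 2-fold higher. Mesenchymal markers summed to 404 CPM in the manganese library and 48.8 CPM in the control library, with 2 of 2 measured entries higher and 6 of 9 at 0 in both, and the endothelial miR-126 arms to 43.9 CPM in the manganese library and 27.6 CPM in the control library. Both libraries came from the BEAS-2B line, and neither the source of these cell type markers nor their part in the values below was tested. In bulk RNA a change in the cells present and a change in RNA per cell cannot be told apart.

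Together the members made up 0.856% of all counts in the manganese library (95% exact interval 0.838 to 0.873) and 0.844% in the control library (0.827 to 0.862). In the manganese library 8596 of their 9336 counts were on 5p arms, and in the control library 8216 of 8984. The order of the 5p arms differed between the libraries at the top. The level of miR-100-5p was 2701 CPM in the manganese library, where it ranked 34 among all entries, and 2056 CPM in the control library, where it ranked 43. For miR-125a-5p the levels were 2150 CPM in the manganese library and 2500 CPM in the control library, and for miR-125b-5p they were 1852 CPM in the manganese library and 1954 CPM in the control library. So miR-100-5p was the most abundant member in the manganese library, and miR-125a-5p in the control library. Next came miR-99b-5p, with 879 CPM in the manganese library and 640 CPM in the control library, and then miR-99a-5p, with 453 CPM in the manganese library and 420 CPM in the control library. In the control library the counting intervals of the neighbours miR-100-5p and miR-125b-5p overlapped, so those neighbours did not differ beyond counting error.

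The 3p arms covered a wider range. The highest was miR-100-3p at 371 CPM in the manganese library and 287 CPM in the control library. It was followed by miR-125b-1-3p, at 184 CPM in the manganese library and 229 CPM in the control library, and miR-99b-3p, at 78.5 CPM in the manganese library and 116 CPM in the control library. For miR-125a-3p the levels were 35.5 CPM in the manganese library and 26.7 CPM in the control library, and for miR-125b-2-3p they were 21.5 CPM in the manganese library and 29.5 CPM in the control library. The lowest was miR-99a-3p, at 0.935 CPM in the manganese library and 20.3 CPM in the control library. The counting intervals of miR-125a-3p and miR-125b-2-3p overlapped in both libraries, and in the control library that of miR-99a-3p overlapped both of theirs. Summed over the libraries, 8 of the 11 members had at least 100 counts, and miR-99a-3p, miR-125a-3p and miR-125b-2-3p had fewer.

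**Figure D2:**
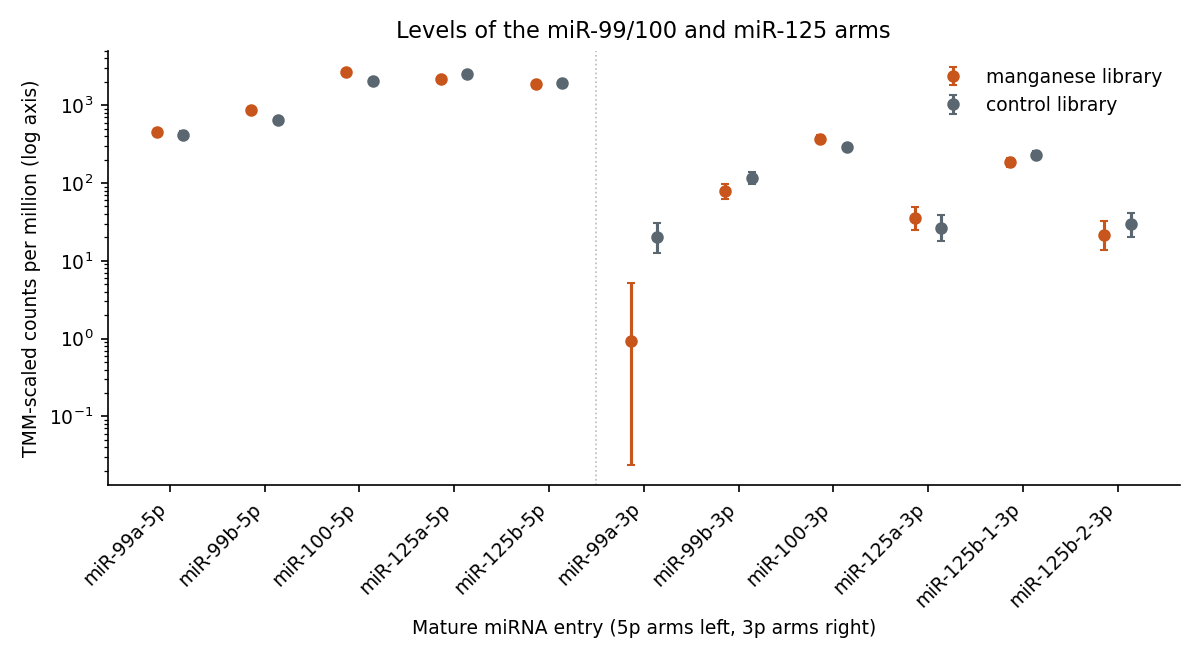
Level of each member in TMM-scaled CPM on a log axis, in the manganese library (orange) and the control library (grey), with 95% exact counting intervals and 1 library per group. Most pairs lie close together, and miR-99a-3p stands apart at 0.935 CPM with manganese against 20.3 CPM in the control.

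Only 1 of the 11 members differed by size, meaning 2-fold or more, up or down, with a 95% counting interval that excluded 1. It was miR-99a-3p, with 1 count in the manganese library and 22 in the control library, a fold of 0.0461 (0.00112 to 0.285). None of the members was at least 2-fold higher, against 12.9% of all measured entries, and 1 was at least 2-fold lower, against 6.45% of them, and with 11 members these counts are close to the background. The median fold of the members was 0.948, beside 0.944 for all measured entries. All 11 members had at least 20 counts, but miR-99a-3p reached that filter through its control counts alone.

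Each of the miR-99/100 5p arms had a fold above 1 in these libraries, none reaching 2. The counts of miR-100-5p were 2890 in the manganese library and 2231 in the control library, a fold of 1.31 (1.24 to 1.39). For miR-99b-5p they were 940 in the manganese library and 695 in the control library, a fold of 1.37 (1.24 to 1.52). The chromosome 21 paralogue miR-99a-5p had 485 counts in the manganese library and 456 in the control library, a fold of 1.08 (0.948 to 1.23) whose interval included 1. Summed over the shared seed, the family had 4315 counts in the manganese library and 3382 in the control library, a fold of 1.29 (1.24 to 1.35), which was 1.24 to 1.47 over the other scalings tried.

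The miR-125 5p arms lay on the other side. For miR-125a-5p the counts were 2300 in the manganese library and 2713 in the control library, a fold of 0.860 (0.813 to 0.910). Its interval included 1 when library totals left out the 5 most abundant entries (0.978, 0.925 to 1.03) or the blood cell list (0.978, 0.924 to 1.03). The counts of miR-125b-5p were 1981 in the manganese library and 2121 in the control library, a fold of 0.948 (0.891 to 1.01) that lay above 1, at 1.08, under those 2 scalings. Their sum was 4281 counts in the manganese library and 4834 in the control library, a fold of 0.898 (0.862 to 0.936). That sum had a fold of 1.02 under the same 2 scalings, so its direction depended on the scaling.

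A ratio taken within each library is free of the scaling. The summed miR-99/100 5p arms had 1.01 counts for each count of the summed miR-125 5p arms in the manganese library, and 0.700 in the control library. This was a 1.44-fold higher ratio (1.35 to 1.53, counting error only). For scale, 119 entries whose counts in both libraries summed to 400 or more had a median fold of 0.872 (interquartile range 0.731 to 1.08). Ordered by fold from the highest, miR-99b-5p ranked 12, miR-100-5p 14 and miR-99a-5p 30 among these 119, and miR-125b-5p ranked 46 and miR-125a-5p 63.

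**Figure D3:**
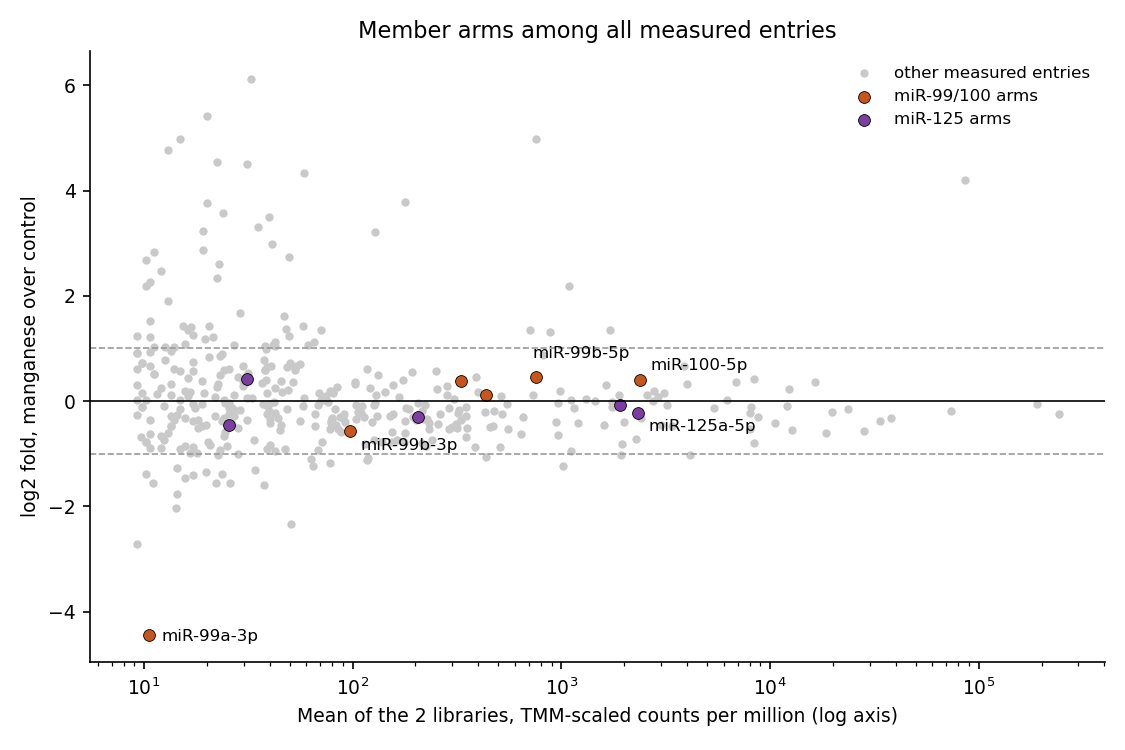
Log2 fold of manganese over control against the mean level of the 2 libraries for all 403 measured entries, with counts of 0 set to 3, the miR-99/100 arms in orange and the miR-125 arms in purple. Dashed lines mark 2-fold, and miR-99a-3p is the only member beyond them. Counts above 0 were plotted unchanged. With 1 count in the manganese library, miR-99a-3p therefore lies lower than an entry with 0 there and the same control count would.

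Within the miR-99/100 seed family the shares of the paralogues in the manganese library differed from those in the control library by −2.24 to 1.23 percentage points. The share of miR-100-5p among the 5p counts was 67.0% (65.5 to 68.4) in the manganese library and 66.0% (64.3 to 67.6) in the control library. That of miR-99b-5p was 21.8% (20.6 to 23.0) in the manganese library and 20.55% (19.2 to 22.0) in the control library. The share of miR-99a-5p was 11.2% (10.3 to 12.2) in the manganese library and 13.5% (12.3 to 14.7) in the control library, a difference of −2.24 points and an odds ratio of 0.813 (0.707 to 0.934). The odds ratios of the other paralogues had intervals that included 1, at 1.05 (0.950 to 1.15) for miR-100-5p and 1.08 (0.963 to 1.20) for miR-99b-5p. With both arms of each paralogue counted, the odds ratio of miR-100 was 1.11 (1.02 to 1.22), an interval that excluded 1. In the miR-125 family, miR-125a-5p made up 53.7% (52.2 to 55.2) of the 5p counts in the manganese library and 56.1% (54.7 to 57.5) in the control library, with miR-125b-5p as the remainder. The odds ratio of that share was 0.908 (0.835 to 0.987), and with both arms counted it was 0.930 (0.858 to 1.01), an interval that included 1.

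At the chromosome 19 locus, neighbours can be compared through arms that are made nowhere else. There miR-99b-5p had 0.119 counts for each count of let-7e-5p in the manganese library and 0.0742 in the control library, 1.61-fold higher (1.45 to 1.78). The let-7e-5p counts themselves, from a growth-restraining family, were 7886 in the manganese library and 9361 in the control library. Its sequence differs from that of let-7a-5p by a single base. The counts of let-7a-5p were 199234 in the manganese library and 210027 in the control library. Reads of let-7a-5p with an error could therefore be placed on let-7e-5p, and how such reads were placed is not known. Against its other neighbour, miR-125a-5p, the ratio of miR-99b-5p was 0.409 in the manganese library and 0.256 in the control library, 1.60-fold higher (1.42 to 1.79). The ratio of let-7e-5p to miR-125a-5p was 3.43 in the manganese library and 3.45 in the control library, a fold of 0.994 with an interval of 0.932 to 1.06. Thus the 5p arms of let-7e and miR-125a kept their proportion to within that interval, and that of miR-99b did not.

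At the chromosome 21 locus, miR-99a-5p had 0.0688 counts for each count of let-7c-5p in the manganese library and 0.0443 in the control library, 1.55-fold higher (1.36 to 1.78). The counts of let-7c-5p were 7054 in the manganese library and 10300 in the control library, a fold of 0.695 (0.674 to 0.716). Like let-7e-5p, it differs from let-7a-5p by a single base, so misplaced let-7a-5p reads could enter its counts. Relative to miR-125b-5p, which 2 loci make, the ratio of miR-99a-5p was 0.245 in the manganese library and 0.215 in the control library, with a fold of 1.14 (0.986 to 1.32) whose interval included 1. With miR-125b-2-3p, the arm made only there, it was 1.48 (0.825 to 2.69), limited by 23 counts in the manganese library and 32 in the control library. The ratio of let-7c-5p to miR-125b-5p was 3.56 in the manganese library and 4.86 in the control library, a fold of 0.733 (0.684 to 0.786). Since chromosome 11 also makes miR-125b-5p, this ratio cannot be set beside that of let-7e-5p to miR-125a-5p on chromosome 19. Of the miR-125b 3p counts, the chromosome 21 copy gave 10.5% in the manganese library and 11.4% in the control library. A ratio of let-7c-5p to miR-125b-2-3p was not computed.

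The chromosome 11 locus can be followed through miR-100, miR-125b-1-3p and let-7a-2-3p. The ratio of miR-100-5p to miR-125b-5p was 1.46 in the manganese library and 1.05 in the control library, 1.39-fold higher (1.28 to 1.51). Set against miR-125b-1-3p, with 197 counts in the manganese library and 248 in the control library, the ratio of miR-100-5p was 1.63-fold higher (1.34 to 1.99), and that of miR-100-3p 1.61-fold higher (1.26 to 2.06). For let-7a-2-3p, the passenger arm of that locus, the counts were 49 in the manganese library and 55 in the control library, a fold of 0.904 (0.602 to 1.35) that lay above 1 under 2 scalings. The ratio of miR-100-5p to let-7a-5p, an arm of 3 hairpins, was 1.37-fold higher (1.29 to 1.44). Ratios that share an arm are not separate observations, and at each locus they rest on the same 2 libraries.

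Summed over the arms made only from a locus, the 3 loci had different folds, but the sums hold unlike arms. The chromosome 11 sum leaves out let-7a-5p and miR-125b-5p, so most of its counts were on miR-100 arms. The chromosome 11 sum was 3533 counts in the manganese library and 2845 in the control library, a fold of 1.26 (1.20 to 1.32). The chromosome 21 sum was 7652 counts in the manganese library and 10969 in the control library, a fold of 0.708 (0.687 to 0.729). Most of that sum was let-7c-5p, and without the let-7 arms it had 509 counts in the manganese library and 510 in the control library, a fold of 1.01 (0.894 to 1.15). The chromosome 19 sum was 11260 counts in the manganese library and 12960 in the control library, a fold of 0.881 (0.859 to 0.904) that became 1.003 or 1.002 when totals left out the 5 most abundant entries or the blood cell list. Most of the chromosome 19 sum was let-7e-5p. Without the let-7 arms it had 3362 counts in the manganese library and 3563 in the control library, a fold of 0.957 (0.913 to 1.004). The miR-99/100 5p arms alone had folds of 1.31 on chromosome 11, 1.08 on chromosome 21 and 1.37 on chromosome 19. Chromosome 21 was lowest both in the sums and in these like arms. The counting intervals of miR-100-5p (1.24 to 1.39) and miR-99b-5p (1.24 to 1.52) overlapped, so the order of chromosomes 11 and 19 in the like arms was within counting error. None of the 3 sums reached 2-fold.

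**Figure D4:**
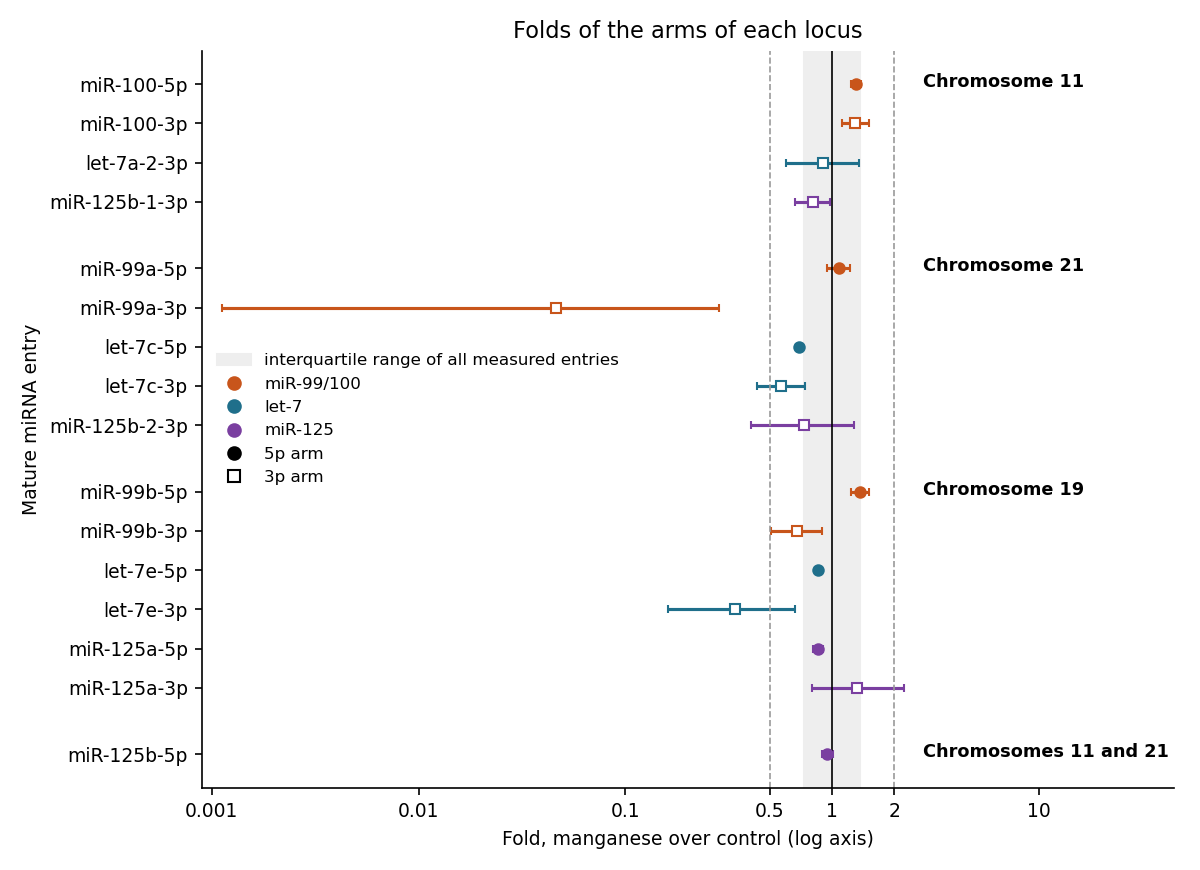
Fold of manganese over control (log axis) with 95% counting intervals for the arms of each locus, filled circles for 5p arms and open squares for 3p arms, dashed lines at 2-fold and a grey band for the interquartile range of all measured entries. The miR-99/100 5p arms lie right of every let-7 and miR-125 5p arm plotted, and miR-99a-3p lies at 0.0461.

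The arms of a hairpin come from 1 precursor, and their ratio, taken within each library, is also free of the scaling. In miR-100 the 3p arm held 12.1% (10.98 to 13.2) of both arms' counts in the manganese library and 12.2% (10.985 to 13.6) in the control library. The odds ratio of 3p to 5p counts, manganese over control, was 0.985 (0.839 to 1.16). In miR-99b the 3p arm had 84 counts in the manganese library and 126 in the control library, beside 940 counts of its 5p arm in the manganese library and 695 in the control library. Its 3p share was 8.20% (6.60 to 10.1) in the manganese library and 15.3% (12.9 to 18.0) in the control library, and the 2 intervals did not overlap. That gave an odds ratio of 0.493 (0.363 to 0.667).

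In miR-99a the 3p share was 0.206% (0.00521 to 1.14) in the manganese library and 4.60% (2.91 to 6.89) in the control library. With 485 counts of the 5p arm in the manganese library, the single 3p count gave an odds ratio of 0.0428 (0.00103 to 0.267). Among all 136 hairpins with both arms under plain names, at least 20 counts per library and some count of each arm, 8.09% had an odds ratio of 0.5 or less with an interval excluding 1, and 6.62% one of at least 2. Of the 5 member arm ratios, with both miR-125b hairpins pooled, 2 passed in the lower direction and 0 in the higher direction. That of miR-99b lay just inside the threshold. The miR-125b precursors, whose 3p arms are named by copy, are not among the 136. Across these hairpins the interquartile range of the odds ratios was 0.553 to 1.58.

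The miR-125 precursors had no arm ratio past that rule. In miR-125a the 3p share was 1.63% (1.15 to 2.22) in the manganese library and 1.06% (0.709 to 1.52) in the control library, an odds ratio of 1.55 (0.925 to 2.61). For miR-125b, with the 3p arms of both copies summed, it was 10.0% (8.77 to 11.3) in the manganese library and 11.7% (10.4 to 13.01) in the control library, an odds ratio of 0.841 (0.694 to 1.02). The copy from chromosome 21 gave 23 of the miR-125b 3p counts in the manganese library, 10.5% (6.74 to 15.3), and 32 in the control library, 11.4% (7.95 to 15.7). The odds ratio between the copies was 0.905 (0.489 to 1.65), so a shift between the 2 copies was not detectable at this depth.

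Of the let-7 neighbours, let-7e had 12 counts of its 3p arm in the manganese library and 36 in the control library, an odds ratio of 3p to 5p counts of 0.396 (0.187 to 0.779). The odds ratio of let-7c was 0.817 (0.622 to 1.07). On chromosome 19, then, the 3p arms of miR-99b and let-7e both had a smaller share in the manganese library, while the interval for miR-125a included 1.

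**Figure D5:**
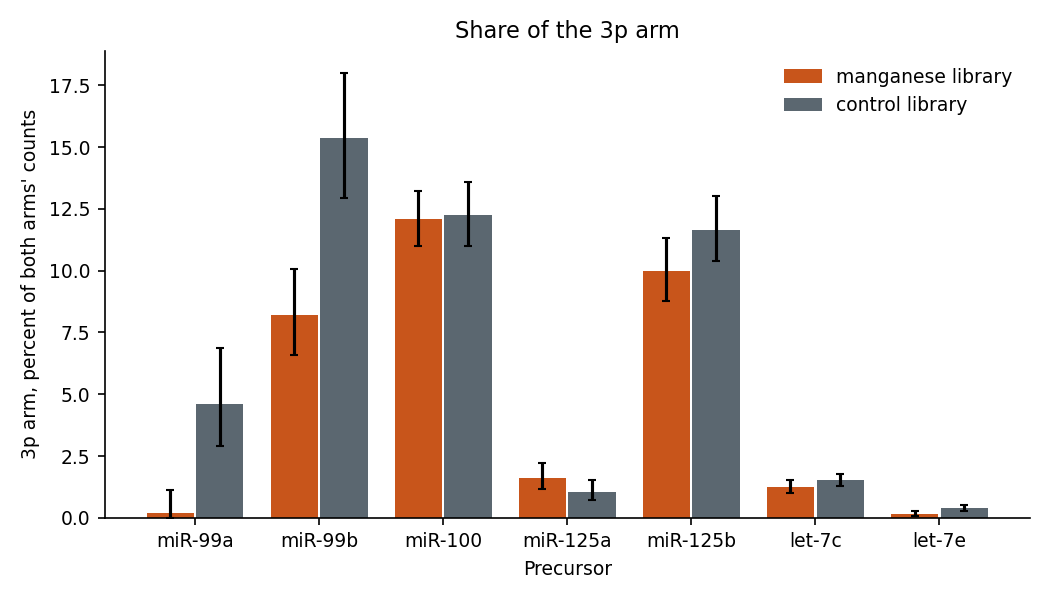
Share of the 3p arm among the counts of both arms, in percent, for 5 member arm pairs and 2 let-7 neighbours. Both miR-125b hairpins are pooled. The manganese library is orange and the control library grey, with 95% exact counting intervals and 1 library per group. The share for miR-99b is 8.20% with manganese against 15.3% in the control, and for miR-100 it is 12.1% with manganese against 12.2% in the control.

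In the related miR-10 family, miR-10a-5p shares 11 bases in a row with miR-100-5p, and the sequence of miR-10b-5p was not compared here. The counts of miR-10a-5p were 5082 in the manganese library and 3255 in the control library, a fold of 1.58 (1.52 to 1.66). Those of miR-10b-5p were 2631 in the manganese library and 1049 in the control library, a fold of 2.54 (2.37 to 2.74), which passed the rule. The 3p arm of miR-10a, named after its values were seen, had 10 counts in the manganese library and 27 in the control library, an odds ratio of 3p to 5p counts of 0.237 (0.102 to 0.507), so a lower 3p share past the rule was not particular to the miR-99 hairpins.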

How the data were processed

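Small RNA was sequenced from 1 manganese and 1 control library. Per the labels' protocols, total miRNA was isolated with a miRNeasy kit. The deposited count table gives whole-number counts per mature miRNA entry. That unit was read from the values. The build is hg38 per the submitters' processing notes, and the sources used here do not state the aligner, counter, miRNA annotation or trimming. The other deposited table equalled the manganese minus the control count in 2904 of 2904 entries and was used no further.

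Library sizes (1091070 for manganese, 1064179 for control) were scaled with TMM factors (0.981 for manganese, 1.02 for control) from edgeR 4.0.16 in R 4.3.3. Folds have exact conditional binomial (Clopper-Pearson) 95% intervals, and ratios within a library have exact conditional odds ratio intervals (scipy 1.17.1). These cover counting error only, since 1 library per group gives no replicate error. Reads carry no stated molecular identifiers, so copies made by amplification could not be told apart. With 1 library per group no p-value is given. The procedures were tested on simulated counts with counting error only and known totals, which tests neither the scaling nor variation between replicates. Levels of different entries are shares of a library, not molecules per cell.

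Measured entries had 20 or more counts, summed over the libraries. Named were all members, the let-7 arms of the loci, miR-10a-5p, miR-10b-5p and 3 further entries nearest in fold. Some entries of the cell type lists are also named. The members and lists were chosen with earlier results of these data known. Alternatives were totals without TMM, size factors of DESeq2 1.42.0 (equal in both libraries), totals without the 5 most abundant entries or the blood cell list, other filters and rules of size, and other sums of arms. Using the miR-125b 3p arms as partners in neighbour ratios was chosen after seeing the data.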

Additional observations from a re-analysis of the deposited data

Results flagged for a closer look

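Outside the members, the table held 3 entries with a p- prefix and the members' numbers, which the sources used here do not explain. One of them, p-hsa-miR-99, had 5 counts in the manganese library and 0 in the control library, where a count of 0 allows up to 3. The entry p-hsa-miR-125 had 3 counts in each library, and p-hsa-miR-100 had 0 in both.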

How the results depend on the processing

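Leaving the 5 most abundant entries, or the blood cell list, out of the library totals moved the log2 folds of all entries by 0.186 and 0.185. The fold of the summed miR-99/100 5p arms was then 1.472 and 1.471, that of the summed miR-125 5p arms 1.022 and 1.021, and those of the locus sums 1.433 and 1.432 for chromosome 11, 0.805 and 0.8045 for chromosome 21, and 1.003 and 1.002 for chromosome 19. Without TMM factors the sums were 0.680 for chromosome 21 and 0.847 for chromosome 19. Adding the shared miR-125b-5p counts gave 1.13 for chromosome 11 and 0.747 for chromosome 21. Leaving out the let-7 arms gave 1.01 for chromosome 21 and 0.957 for chromosome 19. With at least 100 counts, 0 members were at least 2-fold lower, since miR-99a-3p was no longer measured. The mean log2 fold of the members lay −0.54 from that of all measured entries, where the median lay 0.0058 from it, and the mean includes miR-99a-3p at −4.44. With the miR-125b arms made from 1 locus as partners, chosen after the data were seen, the ratio for miR-100-5p was 1.63-fold and that for miR-99a-5p 1.48-fold higher. For these shifts the cause was not tested. The arm odds ratios, paralogue shares and other neighbour ratios stayed within their counting intervals under the alternatives run for them, although with both arms counted the interval of the miR-100 share excluded 1 (1.02 to 1.22) and that of the miR-125a share included it (0.858 to 1.01), and among members 36 of 44 folds did over 4 scalings. No paired analysis was possible because each group holds 1 library, and for the same reason no library could be left out. Entries under about 100 counts have wide intervals.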

Other observations

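Among 69 other entries whose counts summed to 1000 or more, the 3 whose fold was nearest to that of the summed member 5p arms were miR-182-5p, miR-425-5p and miR-23a-3p. The sum had 8596 counts in the manganese library and 8216 in the control library, a fold of 1.06 (1.03 to 1.09). That fold was 1.02 to 1.21 over the other scalings tried. The counts of miR-182-5p were 3201 in the manganese library and 3066 in the control library, a fold of 1.06 (1.01 to 1.11). The folds were 1.07 (0.950 to 1.21) for miR-425-5p and 1.08 (1.01 to 1.15) for miR-23a-3p. This likeness is over a single contrast of 2 libraries and says nothing of shared control.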
